A study of Mus musculus with 9 samples.

Results

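RAB GTPases and the vesicle SNARE proteins were described across naive, Th1 and Th17 CD4+ T cells of the mouse. The genes were chosen by name alone: a symbol, reached through the RefSeq accession of the array probe, that starts with Rab and a digit, Stx and a digit, Vamp, or Snap and a 2-digit number, without the Rabgap and Stxbp genes. The rule found 96 genes among the 20659 symbols on the array, of which 69 are Rab symbols, 15 Stx, 7 Vamp and 5 Snap. A gene was tested if it had a probe whose signal passed the scanner's background call on 3 or more of the 9 arrays. Of the 96 genes 84 met this (59 Rab, 14 Stx, 7 Vamp and 4 Snap), among 19134 genes tested in all. Of those 19134 only 13117 have a symbol. The others are array accessions without one, each counted as a gene, and they are part of every share of all genes given below. A gene that meets the filter through the group in which it is high had to differ, so the counts given here describe the tested genes and not the whole family. The name rule also caught 9 genes for RAB effectors or regulators (such as Rab11fip1 and Rab3gap1) and 4 antisense or unrelated genes, which are described apart.

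RAB proteins are small GTPases that mark the membranes of the cell. In the GTP-bound form each recruits effectors (motors, tethers and lipid enzymes) to its own compartment, and most are attached to the membrane by a lipid added by geranylgeranyl transferase. SNAREs carry out the fusion that follows tethering: a VAMP on the vesicle zips together with a syntaxin and a SNAP-25 type protein on the target membrane, a Sec1/Munc18 protein guides the assembly, and NSF with its SNAP adaptors takes the complex apart again. In lymphocytes these proteins carry antigen receptors back to the immunological synapse, move lytic granules and cytokines to the surface, and sort receptors to lysosomes.

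Splenic and lymph node cells of the BALB/c strain were enriched for CD4+ cells with magnets. They were then stimulated for 3 h with 10 ng/ml of the phorbol ester PMA and 500 ng/ml of the calcium ionophore ionomycin. This stimulation was given to all groups, the naive cells included. A cytokine secretion assay, which catches a cell's own cytokine on its surface, and flow sorting of CD3+CD4+ cells then gave naive cells (CD45RB high), Th1 cells (CD45RB low, IFNg+ IL-17A-) and Th17 cells (CD45RB low, IFNg- IL-17A+). Each group has 3 arrays, made from 0.5 µg of Cy3-labelled RNA on 1-colour Agilent arrays. The labels name no animals or cultures, so the p-values reflect only how far these arrays spread within a group, and that spread can be technical. Naive cells therefore differ from the other groups in the CD45RB gate as well as in cytokine secretion.

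On these arrays 53.4 to 58.3% of probes were above background and 0 spots were saturated. The cytokine genes followed the sort: Ifng, whose protein was sorted on, had a log2 level of 8.92 to 9.27 in Th1 cells and 1.17 to 2.04 in the other arrays, and Il17a had 9.04 to 9.51 in Th17 cells and -4.69 to 0.54 elsewhere. Cd3e and Cd4, the markers of the sorted lineage, were above background on all 9 arrays, but their levels differed between groups. Mean log2 levels in naive, Th1 and Th17 cells were 2.92, 5.12 and 4.55 for Cd3e and 2.88, 3.76 and 3.25 for Cd4. For both genes every naive array was below every Th1 and Th17 array, and the cause was not tested. Markers of other cells moved between groups. Of 5 genes of CD8 T cells and NK cells, 3 (Cd8a, Klrb1c and Ncr1) were above background on no array, and the summed signal of the list, in multiples of the 75th percentile of the array, was 1.20 to 1.54 in naive, 0.303 to 0.576 in Th1 and 0.0764 to 0.117 in Th17 cells. Cd8b1 and Eomes carried that sum. Their mean log2 levels in naive, Th1 and Th17 cells were -0.74, -4.05 and -4.15 for Cd8b1 and -0.48, -1.67 and -6.17 for the brighter probe of Eomes. The erythroid and platelet list (6 of 7 genes on the array, Ppbp above background on none) summed to 0.0880 to 0.142, 0.100 to 1.69 and 0.9496 to 3.02. The myeloid list (7 genes, Fcgr3 on none) summed to 16.97 to 17.2, 25.8 to 31.8 and 20.1 to 30.8. Its brightest probe, of Itgam, had mean log2 levels of 3.65, 4.72 and 4.45 in naive, Th1 and Th17 cells. The brightest of Csf1r had 2.14, 1.42 and 1.37, so the list did not move as one. Of 6 B cell genes 4 (Cd79b, Ms4a1 and Pax5 among them) were above background on none, with sums of 0.0650 to 0.105, 0.0692 to 0.144 and 0.0670 to 0.0850. Of 5 gamma delta T cell genes only Sox13 was on the array, at 1.56 to 1.76, 1.06 to 1.26 and 0.979 to 1.29. The part of these cells in the results below was not tested. In bulk samples fewer cells of a type and less RNA per cell cannot be told apart.

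A level here is the log2 of the processed Cy3 signal minus the log2 of the 75th percentile of that array, and a change is a difference of 2 group means on that scale, from a limma fit with Benjamini-Hochberg adjustment over all 19134 genes. A gene is called at an adjusted p under 0.05, and only called genes are said to rise or fall. Levels of different probes are not on one scale, so genes are compared by their changes. In Th1 against naive cells 23 of the 84 genes rose and 22 fell. Among all genes tested 53.9% were called, 23.5% higher and 30.4% lower, so the RAB and SNARE genes were called about as often as the others. In Th17 against naive cells 27 rose and 22 fell, against 54.1% called among all genes (24.4% higher and 29.7% lower). These comparisons share the naive arrays, so their results are set side by side and not as independent evidence. In Th17 against Th1 cells 9 genes were higher and 5 lower, against 15.8% of all genes (8.26% higher and 7.5% lower).

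The median change of the 84 genes was -0.014 in Th1 against naive cells, beside -0.093 for all genes, and 0.13 beside -0.087 in Th17 against naive cells. Between the T helper subsets it was 0.072 beside 0.013. The median size of a change without regard to sign was 0.52, 0.58 and 0.24 in the 3 comparisons, and 0.50, 0.51 and 0.24 over all genes. When the percentile of each array was taken only over probes detected on every array, the medians over all genes became 0.055, -0.0021 and -0.050. The share of all calls that were higher went from 43.6% to 55.1% in Th1 against naive cells and from 52.4% to 41.6% in Th17 against Th1 cells. The RAB and SNARE genes then gave 28 higher and 16 lower, 30 and 19, and 6 and 8 in the 3 comparisons. By these medians the genes of the family moved about as far as other genes, and what follows is about which of them moved. Counts by role are to be read beside the shares of all genes. Those were 23.5% higher and 30.4% lower in Th1, and 24.4% and 29.7% in Th17 against naive cells. Changes of 2-fold or more were called up in 9 and down in 10 genes in Th1 against naive cells (11.6% and 9.09% of all genes), up in 14 and down in 9 in Th17 against naive cells (11.9% and 10.3%), and up in 2 and down in 4 between the subsets (3.08% and 3.32%).

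The arrays lay on 3 slides: slide 1 held the naive arrays and Th1 replicate 1, slide 2 held Th1 replicates 2 and 3 with Th17 replicates 1 and 2, and slide 3 held Th17 replicate 3. Naive and Th17 arrays were never on one slide. With slide as a fixed block, changes against naive cells are therefore linked only through Th1 replicate 1, the only Th1 array beside the naive ones. Th17 replicate 3, alone on slide 3, adds nothing to that fit. Within slide 1, Th1 against naive gave 19 genes higher and 16 lower, but Th1 replicate 1 is the only Th1 array there, so its spread is assumed to be that of the naive arrays. Within slide 2, Th17 against Th1 gave 2 higher and 1 lower. With slide as a fixed block the counts were 23 and 16 for Th1 against naive, 18 and 10 for Th17 against naive, and 6 and 5 for Th17 against Th1. In that fit the calls lost in Th1 against naive cells were those of Rab11a, Rab1a, Rab2a, Rab37, Rab3a, Rab43, Rab5a, Rab5c and Snap29 (adjusted p from 0.0531 to 0.383). In Th17 against naive cells they were the rises of Rab10os, Rab11b, Rab26, Rab31, Rab32, Rab33b, Rab3gap2, Vamp5 and Vamp7 and the falls of Rab11a, Rab11fip4, Rab12, Rab20, Rab21, Rab25, Rab29, Rab35, Rab5c, Snap29, Stx5a, Stx7 and Vamp3 (adjusted p from 0.055 to 0.818). In Th17 against Th1 cells they were those of Rab10os, Rab25, Rab5b and Stx8 (adjusted p from 0.0696 to 0.193).

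**Figure D1:**
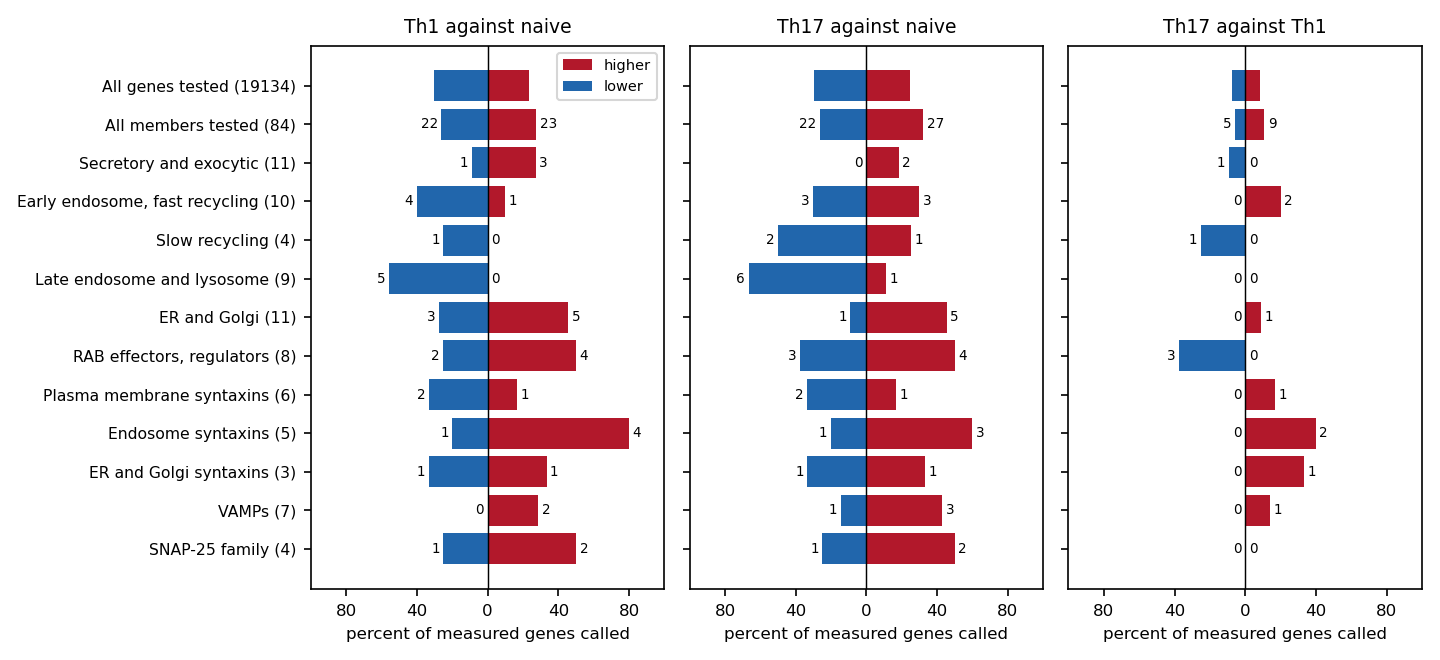
Percent of measured genes called higher (to the right) and lower (to the left) in each comparison, by role of the RAB and SNARE genes, with all 19134 genes for comparison. The numbers beside the bars count the called genes, so that a role of few genes can be read as such; in the late endosome and lysosome RABs 5 of 9 were lower in Th1 and 6 of 9 in Th17 cells against naive cells.

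Promoters are shown for 6 genes with large changes against naive cells, as the letters before their transcription start. They were taken from the 4 largest fitted rises and the 4 largest fitted falls in Th17 against naive cells: Rab39b, Stx11 and Stx8, which rose, and Rab11fip5, Rab34 and Stx3, which fell. That order is not exact, since Rab39b, Rab27b and Rab7b were not above background in one of the groups and Rab11fip5 was above it on 1 of 3 Th17 arrays; Rab27b and Rab7b are not shown. Each window is the 250 bases before the start on the strand of the gene, 5′ to 3′, from RefSeq on GRCm38.p6. Capitals mark a match, on either strand, to any of 6 motifs of T cell activation and T helper factors: the AP-1 site TGANTCA, the NFAT core GGAAA, the ROR site AGGTCA, the T-bet site AGGTGTGA, the STAT site (TTCC and GAA with any 3 bases between them) and the E-box CACGTG.
Rab39b chrX:75578232-75578481, minus strand: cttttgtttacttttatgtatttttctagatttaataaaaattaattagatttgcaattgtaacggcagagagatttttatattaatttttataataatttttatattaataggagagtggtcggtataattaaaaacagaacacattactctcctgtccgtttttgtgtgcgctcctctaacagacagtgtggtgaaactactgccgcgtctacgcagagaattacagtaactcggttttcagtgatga
Stx11 chr10:12964260-12964509, minus strand: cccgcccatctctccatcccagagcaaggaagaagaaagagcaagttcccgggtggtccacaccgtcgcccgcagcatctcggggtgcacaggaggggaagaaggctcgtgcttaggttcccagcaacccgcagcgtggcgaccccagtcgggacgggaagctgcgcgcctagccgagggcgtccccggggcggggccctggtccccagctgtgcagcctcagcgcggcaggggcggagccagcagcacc
Stx8 chr11:67966208-67966457, plus strand: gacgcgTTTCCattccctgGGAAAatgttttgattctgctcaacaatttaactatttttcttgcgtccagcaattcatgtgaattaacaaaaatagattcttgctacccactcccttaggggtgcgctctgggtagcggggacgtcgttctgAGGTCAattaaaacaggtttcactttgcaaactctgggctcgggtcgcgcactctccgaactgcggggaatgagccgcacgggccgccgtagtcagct
Rab34 chr11:78188177-78188426, plus strand, the first of its starts: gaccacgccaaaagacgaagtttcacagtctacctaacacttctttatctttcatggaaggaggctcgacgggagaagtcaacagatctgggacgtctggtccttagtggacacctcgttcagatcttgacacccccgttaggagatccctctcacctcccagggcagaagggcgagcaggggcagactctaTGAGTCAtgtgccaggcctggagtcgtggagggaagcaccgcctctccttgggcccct
Stx3 chr19:11819404-11819653, minus strand: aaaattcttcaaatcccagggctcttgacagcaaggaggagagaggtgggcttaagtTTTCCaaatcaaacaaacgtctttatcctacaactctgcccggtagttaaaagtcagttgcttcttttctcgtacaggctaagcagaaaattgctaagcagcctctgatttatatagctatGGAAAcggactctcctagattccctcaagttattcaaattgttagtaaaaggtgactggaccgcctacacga
Rab11fip5 chr6:85374635-85374884, minus strand: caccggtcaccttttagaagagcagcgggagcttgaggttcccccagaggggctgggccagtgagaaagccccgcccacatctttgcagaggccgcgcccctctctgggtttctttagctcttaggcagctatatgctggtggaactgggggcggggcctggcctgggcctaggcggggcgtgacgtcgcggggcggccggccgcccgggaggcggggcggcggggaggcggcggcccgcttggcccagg
Stx8 held 2 NFAT cores and 1 ROR site, Stx3 held 2 NFAT cores, and Rab34 held 1 AP-1 site that starts 58 bases before the transcription start. No match was found in the windows of Rab39b, Stx11 and Rab11fip5. The windows differed in base composition, with 31.6% G and C in Rab39b, 42% in Stx3, 50% in Stx8, 56.4% in Rab34, 70% in Stx11 and 71.2% in Rab11fip5. A match of letters is common by itself: among 32851 mouse promoter windows of this length 55.6% held an NFAT core, 14% a ROR site, 6.75% an AP-1 site, 6.02% an E-box, 3.27% a STAT site and 1.12% a T-bet site. Windows were found for 79 of the 96 genes, 102 in all, and of these 58.8% held an NFAT core, 6.86% a ROR site, 1.96% an AP-1 site, 10.8% an E-box, 0.98% a STAT site and 0.98% a T-bet site.

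The RABs of secretory vesicles and granules gave 3 genes higher and 1 lower of 11 in Th1 against naive cells (median change 0.35), and 2 higher and 0 lower in Th17 against naive cells (median 0.13). With 36.4% and 18.2% called, beside 53.9% and 54.1% of all genes, they were called less often than other genes. The one that moved furthest was Rab27b, which with Rab27a docks secretory granules and exosome-bearing endosomes at the plasma membrane. Its levels were -5.28, -5.04 and -5.61 in naive cells, -2.64, -2.46 and -2.66 in Th1 cells and -3.15, -2.84 and -3.21 in Th17 cells. All 3 naive arrays were below background, so the naive level is only a bound, and both effector groups lay well above it without overlap. A bound of this kind sets the mean of the brighter group against, on each array, the lowest signal that was above background there or the signal of the dim probe if that is higher. On that bound Rab27b was at least 6.02-fold higher in Th1 cells and at least 4.32-fold higher in Th17 cells. It is counted as a rise in both, but it passed the filter through the Th1 and Th17 arrays alone and so had to be higher there. Th17 against Th1 cells differed by -0.48 (adjusted p = 0.0898), not called.

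Rab27a, the isoform needed for lytic granule release in cytotoxic T cells, had levels of 0.09, 0.39 and -0.061 in naive cells, 1.06, 0.19 and 0.23 in Th1 cells and 0.42, 0.018 and -0.18 in Th17 cells. The groups overlapped, and its change was 0.35 (adjusted p = 0.292) in Th1 and -0.055 (adjusted p = 0.871) in Th17 against naive cells. Th1 replicate 1, which shares slide 1 with the naive arrays, was the highest Th1 array. Rab37, a RAB of regulated exocytosis, had levels of -1.66, -1.17 and -1.43 in naive cells, -0.80, -0.36 and -0.80 in Th1 cells and -1.90, -1.45 and -1.77 in Th17 cells. Th1 cells were the highest group, and Th17 and naive cells overlapped. Rab37 rose by 0.77 (SE 0.19, adjusted p = 0.00813) in Th1 cells, had a change of -0.29 (adjusted p = 0.224) in Th17 cells against naive cells, and was lower in Th17 than in Th1 cells, with a change of -1.05 (SE 0.19, adjusted p = 0.00688). Within slide 1, with 1 Th1 array, the change was 0.63. Another probe of Rab37 gave 0.80, -0.28 and -1.08 in the same comparisons.

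The RAB3 proteins, known from synaptic vesicle release, gave 1 gene higher and 1 lower of 4 in Th1 against naive cells, and none was called in Th17 against naive cells by limma (lowest adjusted p = 0.12, for Rab3d). Rab3c rose in Th1 cells by 0.72 (SE 0.14, adjusted p = 0.00257), a 1.65-fold change, and its Th17 change was 0.27 (adjusted p = 0.126). Rab3a, above background on 2 of 3 Th1 arrays, fell in Th1 cells, with a change of -0.60 (SE 0.21, adjusted p = 0.0384), and it was not called without naive replicates 2 or 3, Th1 replicates 1 or 2 or Th17 replicate 1, with changes of -0.60 to -0.38. Rab3d had levels of -5.44, -2.31 and -5.22 in naive cells, -5.68, -4.97 and -5.74 in Th1 cells and -5.69, -6.38 and -5.46 in Th17 cells, with naive replicate 2 above the rest and no Th17 array above background. Rab3b had a change of 1.005 (adjusted p = 0.12) in Th1 and 0.67 (adjusted p = 0.279) in Th17 against naive cells with all naive arrays below background, and Rab3d one of -1.14 (adjusted p = 0.233) and -1.52 (adjusted p = 0.12). Rab26, which has a part in granule maturation, had levels of -5.38, -6.16 and -4.43 in naive cells, -4.21, -4.55 and -4.69 in Th1 cells and -3.87, -4.09 and -4.64 in Th17 cells, and the groups overlapped, with 1 of 3 naive arrays above background. It rose in Th17 cells by 1.12 (SE 0.40, adjusted p = 0.043), and it was not called without naive replicates 1 or 2, Th1 replicates 1, 2 or 3 or Th17 replicates 1 or 2, with changes of 0.70 to 1.12. The RABs that carry cargo from the Golgi to the surface were not called in any of the 3 comparisons by the probes used. A dimmer probe of Rab8b gave -0.26 (adjusted p = 0.19) in Th1 and -0.41 (adjusted p = 0.04996) in Th17 against naive cells. Rab8a had levels of 1.33, 1.27 and 1.32 in naive cells, 1.10, 1.34 and 1.28 in Th1 cells and 1.36, 1.48 and 1.47 in Th17 cells. Rab8b had levels of 5.76, 5.92 and 5.86 in naive cells, 5.65, 5.73 and 5.44 in Th1 cells and 5.42, 5.74 and 5.70 in Th17 cells. For Rab8a naive and Th1 arrays overlapped and the Th17 arrays lay just above the naive ones, and for Rab8b the naive arrays lay just above the others. The 95% confidence intervals of the log2 change in Th1 and Th17 against naive cells were -0.29 to 0.15 and -0.089 to 0.36 for Rab8a, -0.53 to 0.045 and -0.51 to 0.062 for Rab8b, and -0.19 to 0.60 and -0.25 to 0.54 for Rab10.

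**Figure D2:**
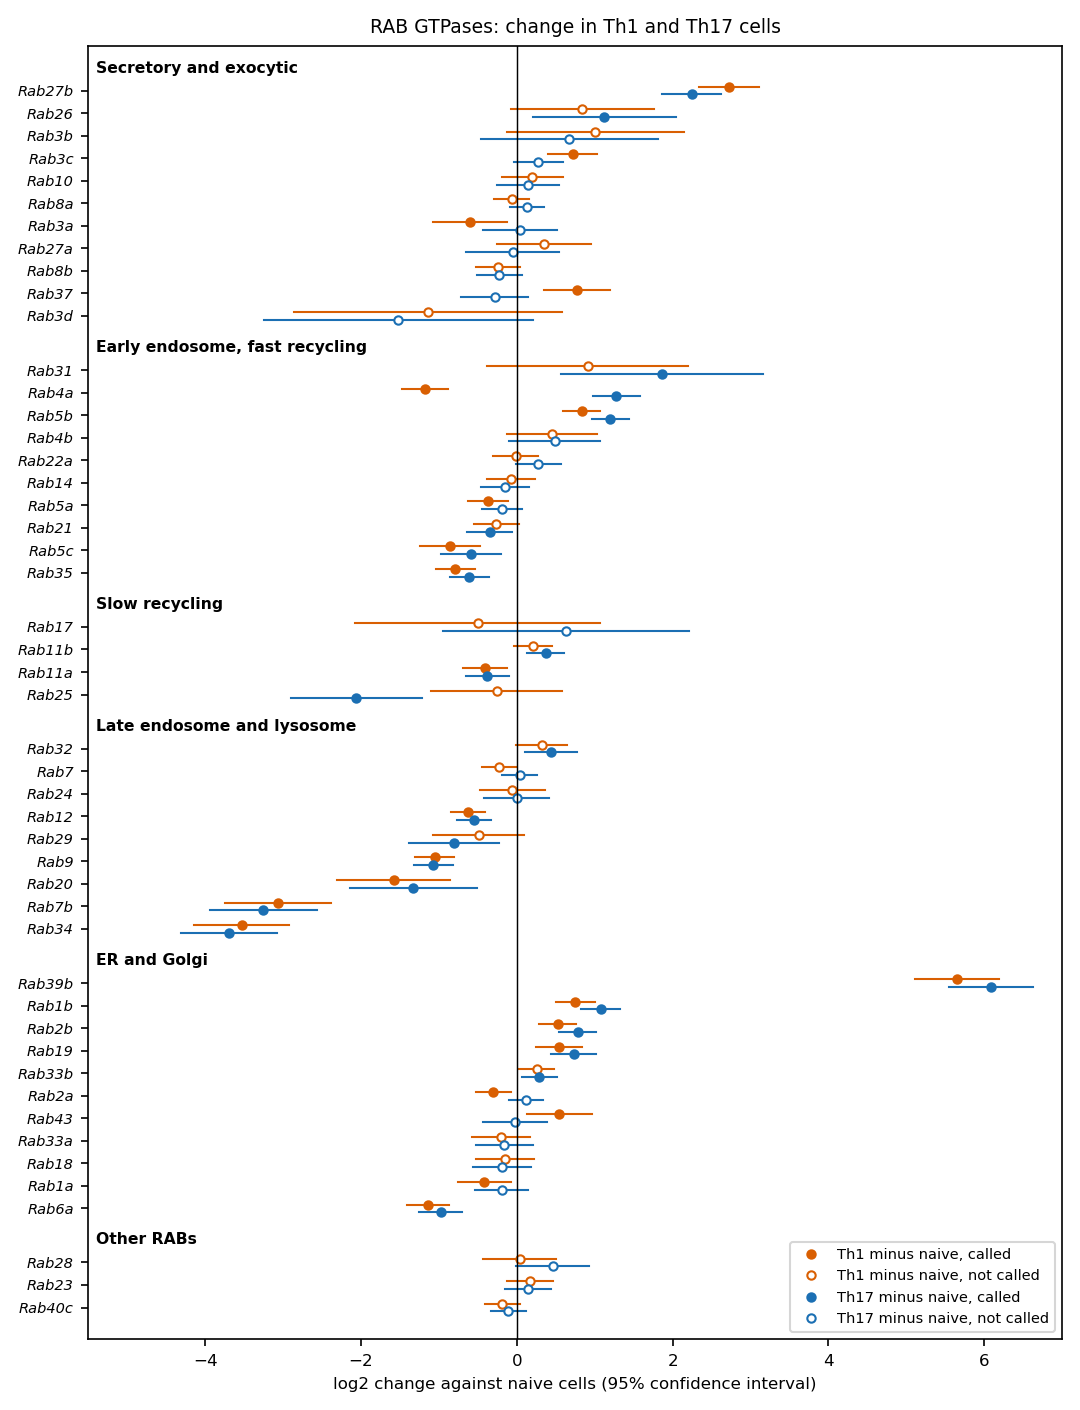
Log2 change against naive cells for the tested RAB GTPases, by role, in Th1 and in Th17 cells, with 95% confidence intervals from the limma fit. Rab39b, Rab27b, Rab25 and Rab7b were not above background in one of the groups, so that the plotted changes are fitted values and the text gives bounds. Rab34 lies at -3.53 and -3.69, and Rab4a is on opposite sides of 0 in the 2 subsets, at -1.18 and 1.28.

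Of the 10 RABs of the early endosome and fast recycling, 1 rose and 4 fell in Th1 against naive cells (median change -0.17), and 3 rose and 3 fell in Th17 against naive cells (median 0.063). Rab4a, which returns receptors from early endosomes to the surface, changed in opposite directions. Its levels were -1.17, -1.23 and -1.08 in naive cells, -2.22, -2.35 and -2.45 in Th1 cells and 0.37, -0.0025 and -0.028 in Th17 cells. The Th1 arrays were all below the naive ones and the Th17 arrays all above them. Rab4a fell, with a change of -1.18 (SE 0.13, adjusted p = 1.50e-04) in Th1 cells and rose by 1.28 (SE 0.13, adjusted p = 8.89e-05) in Th17 cells, so that Th17 cells were 5.48-fold above Th1 cells, a change of 2.45 (SE 0.13, adjusted p = 1.44e-05). Within slide 2 the Th17 against Th1 change was 2.59 (adjusted p = 0.00625). The other probe of Rab4a gave -0.52 (adjusted p = 0.0612), 1.86 and 2.38. Its paralog Rab4b changed by 0.45 (adjusted p = 0.168) in Th1 and 0.49 (adjusted p = 0.138) in Th17 cells against naive cells.

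The 3 RAB5 genes, whose products drive fusion of early endosomes, did not share a direction. Rab5b had levels of 0.52, 0.30 and 0.40 in naive cells, 1.18, 1.28 and 1.24 in Th1 cells and 1.53, 1.53 and 1.77 in Th17 cells, which put both subsets above every naive array. It rose by 0.83 (SE 0.11, adjusted p = 3.17e-04) and 1.20 (SE 0.11, adjusted p = 3.96e-05) in Th1 and Th17 cells. Rab5c had levels of 3.00, 2.80 and 3.02 in naive cells, 2.17, 2.17 and 1.92 in Th1 cells and 2.71, 2.09 and 2.25 in Th17 cells, which put every naive array above both subsets. It fell, with changes of -0.85 (SE 0.17, adjusted p = 0.00294) and -0.59 (SE 0.17, adjusted p = 0.0165). The Th17 change was not called without naive replicate 3 or Th17 replicate 2, with changes of -0.55 to -0.46. Rab5a had levels of 2.43, 2.65 and 2.75 in naive cells, 2.30, 2.22 and 2.21 in Th1 cells and 2.49, 2.30 and 2.48 in Th17 cells. Its Th1 arrays were below every naive array, and its Th17 and naive arrays overlapped. It fell in Th1 cells, with a change of -0.37 (SE 0.11, adjusted p = 0.0219), and it was not called without naive replicates 2 or 3 or Th1 replicates 2 or 3, with changes of -0.35 to -0.30. Its Th17 change was -0.19 (adjusted p = 0.179). The other probe of Rab5a, above background on all 9 arrays, fell in both subsets. It gave -0.47 (adjusted p = 0.00499) in Th1 and -0.38 (adjusted p = 0.0135) in Th17 cells.

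Rab35, another RAB of fast recycling that is found at the immunological synapse, had levels of 4.03, 4.28 and 4.07 in naive cells, 3.32, 3.34 and 3.34 in Th1 cells and 3.67, 3.46 and 3.41 in Th17 cells. Every naive array was above the others. It fell, with changes of -0.79 (SE 0.11, adjusted p = 4.85e-04) in Th1 and -0.61 (SE 0.11, adjusted p = 0.00177) in Th17 cells. Rab31, which carries cargo between the trans-Golgi network and endosomes, had levels of -6.11, -7.14 and -4.64 in naive cells, -4.85, -5.28 and -5.03 in Th1 cells and -4.36, -4.49 and -3.45 in Th17 cells. Naive and Th1 arrays overlapped, and the Th17 arrays were above all naive ones. It rose in Th17 cells by 1.87 (SE 0.56, adjusted p = 0.0221). This value was not called without naive replicates 1 or 2 or Th17 replicate 3, with changes of 1.28 to 1.79, and 1 naive array was above background. Rab21, a RAB of integrin uptake, fell in Th17 cells, with a change of -0.35 (SE 0.13, adjusted p = 0.0456), and it was not called without naive replicates 2 or 3, Th1 replicates 1, 2 or 3 or Th17 replicates 1 or 2, with changes of -0.35 to -0.28. Rab14 and Rab22a, which act between early endosomes and the Golgi, were not called, with Th1 changes of -0.075 and -0.012 and Th17 changes of -0.15 and 0.28.

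RAB11 proteins define the slow recycling endosome. Of 4 RABs of this step 0 rose and 1 fell in Th1 against naive cells (median change -0.33), and 1 rose and 2 fell in Th17 against naive cells (median -0.0046). Rab11a had levels of 1.66, 1.77 and 1.78 in naive cells, 1.48, 1.18 and 1.33 in Th1 cells and 1.55, 1.21 and 1.31 in Th17 cells, with the naive arrays above the others. It fell slightly in both subsets, with changes of -0.41 (SE 0.12, adjusted p = 0.022) in Th1 and -0.38 (SE 0.12, adjusted p = 0.0294) in Th17 cells. The Th1 change was not called without naive replicates 2 or 3 or Th1 replicates 2 or 3, with changes of -0.41 to -0.33. The Th17 change was not called without naive replicates 2 or 3 or Th17 replicates 2 or 3, with changes of -0.36 to -0.31. Rab11b had a change of 0.21 (adjusted p = 0.127) in Th1 cells and rose by 0.37 (SE 0.11, adjusted p = 0.0174) in Th17 cells, where it was not called without naive replicate 3 or Th17 replicate 1, with changes of 0.30 to 0.33. Rab25, the RAB11 paralog of epithelia, was dim: 2 naive arrays, 1 Th1 array and no Th17 array were above background. Its levels were -4.72, -4.39 and -5.63 in naive cells, -4.83, -5.05 and -5.63 in Th1 cells and -6.47, -7.39 and -7.06 in Th17 cells. The Th17 arrays were below all others, with bounds of at least 1.44-fold lower than naive and at least 1.21-fold lower than Th1 cells. These bounds were not tested. The limma calls (adjusted p = 0.00173 and 0.0127) rest on fitted values of Th17 arrays below background, and both were lost with slide as a fixed block. Rab25 passed the filter through naive and Th1 arrays alone. Rab17, also an epithelial RAB, was not called in either comparison with naive cells, and its Th17 replicate 1, at -2.29, stood above the other Th17 arrays, at -5.21 and -4.70.

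Of the 9 RABs of late endosomes, lysosomes, phagosomes and autophagosomes, 0 rose and 5 fell in Th1 against naive cells (median change -0.62), and 1 rose and 6 fell in Th17 against naive cells (median -0.81). Among all genes 30.4% and 29.7% fell in these comparisons. Rab7b, counted as a fall in both, passed the filter through the naive arrays alone and so had to be lower in the others. With slide as a fixed block the calls of Rab12, Rab20, Rab29 and Rab32 in Th17 cells were lost, and 3 falls were left, those of Rab34, Rab7b and Rab9. Between Th17 and Th1 cells 0 of the 9 were called at an adjusted p under 0.05 by limma (median 0.054), beside 15.8% of all genes. With the percentile taken only over probes detected on every array, a scaling that shifts the all-gene median by 0.15 in Th1 against naive cells, 5 fell in Th1 cells and 1 rose.

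Rab34, which positions lysosomes and acts in the building of cilia, fell furthest of those above background in all 3 groups. Its levels were 0.93, 1.499 and 1.22 in naive cells, -2.62, -2.13 and -2.20 in Th1 cells and -2.87, -1.90 and -2.66 in Th17 cells. Every naive array was far above all arrays of the other groups. Rab34 fell, with changes of -3.53 (SE 0.27, adjusted p = 1.95e-05) in Th1 cells and -3.69 (SE 0.27, adjusted p = 1.45e-05) in Th17 cells, with one of -0.16 (adjusted p = 0.726) in Th17 against Th1 cells. Rab7b, a RAB of traffic from late endosomes to the Golgi, had levels of -3.67, -4.18 and -4.70 in naive cells, -7.00, -7.38 and -7.34 in Th1 cells and -6.93, -7.82 and -7.54 in Th17 cells. It was above background on all 3 naive arrays and on no Th1 or Th17 array, so that it was at least 1.88-fold lower in Th1 and at least 2.4-fold lower in Th17 cells. Rab9, which returns mannose 6-phosphate receptors from late endosomes to the Golgi, had levels of 2.24, 2.36 and 2.598 in naive cells, 1.38, 1.38 and 1.28 in Th1 cells and 1.27, 1.33 and 1.39 in Th17 cells. Naive cells and the subsets did not overlap. Its change was -1.06 (SE 0.11, adjusted p = 1.06e-04) in Th1 and -1.07 (SE 0.11, adjusted p = 8.81e-05) in Th17 cells.

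Rab7, the RAB that drives fusion of late endosomes with lysosomes, had levels of 2.14, 2.18 and 2.21 in naive cells, 2.05, 1.85 and 1.95 in Th1 cells and 2.20, 2.12 and 2.31 in Th17 cells. The Th1 arrays lay just below the naive ones, and the Th17 arrays overlapped them. Its change was -0.23 (adjusted p = 0.0753) in Th1 and 0.035 (adjusted p = 0.778) in Th17 cells, with 95% confidence intervals of -0.45 to -0.0081 and -0.19 to 0.25. Rab12, which sends transferrin receptor to lysosomes, fell, with changes of -0.62 (SE 0.094, adjusted p = 7.61e-04) in Th1 and -0.55 (SE 0.094, adjusted p = 0.0014) in Th17 cells. Rab20, known from phagosome maturation, had levels of 0.68, 1.31 and 1.01 in naive cells, -0.15, -0.66 and -0.94 in Th1 cells and 0.15 and -0.81 in Th17 cells, with no value for Th17 replicate 2, whose spot was an outlier. It fell, with changes of -1.58 (SE 0.31, adjusted p = 0.004) in Th1 cells and -1.33 (SE 0.35, adjusted p = 0.0142) in Th17 cells. The fit used the 2 Th17 arrays that had a value. The Th17 value was not called without Th17 replicate 3, with a change of -0.85, and was -0.20 (adjusted p = 0.736) with slide as a fixed block. Rab29, which recruits the kinase LRRK2 to lysosomes, fell in Th17 cells, with a change of -0.81 (SE 0.25, adjusted p = 0.0258). It was not called without naive replicates 1 or 2 or Th17 replicates 2 or 3, with changes of -0.83 to -0.70. With slide as a fixed block the change was 0.11, where its sign turned. That value hinges on Th1 replicate 1, at a level of 0.92, beside 0.26 and -0.034 in Th1 replicates 2 and 3. Rab32, a RAB of lysosome-related organelles, rose in Th17 cells by 0.44 (SE 0.14, adjusted p = 0.0307) and was not called without naive replicates 1, 2 or 3 or Th17 replicates 1 or 2, with changes of 0.33 to 0.48. Rab24, linked to autophagy, was not called, with changes of -0.058 in Th1 and -0.0038 in Th17 cells.

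Among the 11 RABs of the endoplasmic reticulum and Golgi, 5 rose and 3 fell in Th1 against naive cells (median change 0.26), and 5 rose and 1 fell in Th17 against naive cells (median 0.12). Rab39b, a Golgi RAB whose loss in humans causes intellectual disability with parkinsonism, was not above background in naive cells and rose in both subsets. Its levels were -7.26, -6.75 and -7.83 in naive cells, -1.67, -1.51 and -1.72 in Th1 cells and -1.29, -1.15 and -1.14 in Th17 cells. All 6 effector arrays were far above the highest naive one. On the bound described above it was at least 11.7-fold higher in Th1 cells and at least 15.9-fold higher in Th17 cells. Rab39b, counted as a rise in both, passed the filter through the Th1 and Th17 arrays alone and so had to be higher there. Its change in Th17 against Th1 cells was 0.44 (adjusted p = 0.244).

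In the RAB1 and RAB2 pairs the b isoform rose in both subsets, and the a isoform fell slightly in Th1 cells. Rab1b, which with Rab1a brings vesicles from the endoplasmic reticulum to the Golgi, had levels of 1.41, 1.24 and 1.19 in naive cells, 2.07, 2.11 and 1.94 in Th1 cells and 2.23, 2.38 and 2.49 in Th17 cells. The naive arrays were below all the others. It rose by 0.75 (SE 0.11, adjusted p = 6.23e-04) in Th1 and 1.08 (SE 0.11, adjusted p = 8.26e-05) in Th17 cells. Rab1a fell in Th1 cells, with a change of -0.42 (SE 0.15, adjusted p = 0.0443), where it was not called without naive replicates 2 or 3, Th1 replicates 2 or 3 or Th17 replicate 3, with changes of -0.42 to -0.34, and its Th17 change was -0.19 (adjusted p = 0.302). Rab2b, one of the RAB2 pair of the Golgi, rose by 0.52 (SE 0.10, adjusted p = 0.00291) and 0.78 (SE 0.10, adjusted p = 3.52e-04). Rab2a fell in Th1 cells, with a change of -0.30 (SE 0.10, adjusted p = 0.0282), where it was not called without naive replicates 1, 2 or 3 or Th1 replicates 2 or 3, with changes of -0.31 to -0.26, and its Th17 change was 0.12 (adjusted p = 0.327).

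Rab6a, which carries vesicles back from the Golgi to the endoplasmic reticulum, had levels of 3.23, 3.34 and 3.25 in naive cells, 2.06, 2.21 and 2.12 in Th1 cells and 2.12, 2.25 and 2.52 in Th17 cells. Every naive array was above all others, and Rab6a fell, with changes of -1.14 (SE 0.12, adjusted p = 1.02e-04) in Th1 and -0.98 (SE 0.12, adjusted p = 2.22e-04) in Th17 cells. Rab19, a Golgi RAB, rose by 0.54 (SE 0.13, adjusted p = 0.00697) and 0.73 (SE 0.13, adjusted p = 0.00156). Rab43, of the ER to Golgi path, rose in Th1 cells by 0.55 (SE 0.18, adjusted p = 0.0312) and was not called without naive replicates 1 or 3 or Th1 replicates 1 or 2, with changes of 0.45 to 0.57. Its dimmer probe gave 1.26 in Th1 and 0.30 in Th17 cells against naive cells, and -0.96 (adjusted p = 0.00195) in Th17 against Th1 cells, where the probe used gave -0.57 (adjusted p = 0.0684). Rab33b, which binds an autophagy factor at the Golgi, rose in Th17 cells by 0.29 (SE 0.10, adjusted p = 0.0365), with a Th1 change of 0.26 (adjusted p = 0.0551). The Th17 rise was not called without naive replicates 1, 2 or 3 or Th17 replicates 1, 2 or 3, with changes of 0.26 to 0.32. Its other probe, dimmer, rose in both subsets, by 0.94 (adjusted p = 0.00194) in Th1 and 0.71 (adjusted p = 0.00777) in Th17 cells. Rab33a, of the Golgi, and Rab18, of lipid droplets, were not called, with changes of -0.21 and -0.15 in Th1 and -0.16 and -0.19 in Th17 cells. Of 3 further RABs, Rab23, Rab28 and Rab40c, none was called in any of the 3 comparisons by limma, nor reached an unadjusted p under 0.05. Their largest change was that of Rab28 in Th17 against naive cells, at 0.46 (unadjusted p = 0.0549, adjusted p = 0.0909).

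Genes that carry a RAB number in the symbol but encode partners of RABs are listed here by role as well. Of 8 tested, 4 rose and 2 fell in Th1 against naive cells (median change 0.30), and 4 rose and 3 fell in Th17 against naive cells (median 0.31). Most are Rab11fip genes, effectors that couple RAB11 to motors. Rab11fip1 had levels of -2.07, -1.54 and -1.95 in naive cells, -0.58, -0.55 and -0.62 in Th1 cells and -0.48, -0.17 and -0.14 in Th17 cells. The naive arrays were below all others, and it rose by 1.27 (SE 0.15, adjusted p = 2.48e-04) in Th1 and 1.59 (SE 0.15, adjusted p = 6.87e-05) in Th17 cells. Rab11fip3, the partner of RAB11 in cell division, had levels of 1.01, 0.55 and 0.84 in naive cells, 1.65, 1.90 and 1.89 in Th1 cells and 1.93, 1.91 and 1.87 in Th17 cells, again with the naive arrays lowest. It rose by 1.01 (SE 0.13, adjusted p = 4.01e-04) and 1.10 (SE 0.13, adjusted p = 2.30e-04). Rab11fip5 went the other way: its levels were -2.57, -2.06 and -2.11 in naive cells, -3.81, -3.84 and -3.70 in Th1 cells and -6.13, -5.17 and -6.55 in Th17 cells. The groups ran naive, Th1, Th17 from high to low without overlap, but only 1 of 3 Th17 arrays was above background, so that the size of its Th17 changes is uncertain. Rab11fip5 fell, with changes of -1.53 (SE 0.32, adjusted p = 0.00384) in Th1 and -3.70 (SE 0.32, adjusted p = 3.41e-05) in Th17 cells. Rab11fip4 had levels of 0.63, 0.97 and 0.62 in naive cells, 1.38, 1.12 and 1.11 in Th1 cells and -0.23, -0.30 and -0.05 in Th17 cells. Th1 arrays were above and Th17 arrays below every naive one. It rose in Th1 cells by 0.46 (SE 0.14, adjusted p = 0.02), where it was not called without naive replicates 1 or 3 or Th1 replicate 1, with changes of 0.37 to 0.41, and fell in Th17 cells, with a change of -0.93 (SE 0.14, adjusted p = 6.19e-04). Rab11fip2 was not called, with changes of 0.10 and 0.07.

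The enzymes that switch RABs also differed. Rab3ip, the exchange factor that loads RAB8 with GTP, had levels of 2.22, 2.16 and 2.21 in naive cells, 1.65, 1.56 and 1.43 in Th1 cells and 1.06, 0.79 and 0.78 in Th17 cells. The groups ran naive, Th1, Th17 from high to low without overlap. It fell, with changes of -0.65 (SE 0.11, adjusted p = 0.00131) in Th1 and -1.32 (SE 0.11, adjusted p = 2.83e-05) in Th17 cells. Rab3gap1 and Rab3gap2 together form the GTPase-activating complex of RAB3, which is also an exchange factor of RAB18. Rab3gap1 rose by 0.50 (SE 0.14, adjusted p = 0.0173) in Th1 cells, where it was not called without naive replicate 3 or Th1 replicate 2, with changes of 0.43 to 0.48, and by 0.61 (SE 0.14, adjusted p = 0.00707) in Th17 cells, and Rab3gap2 rose in Th17 cells by 0.56 (SE 0.14, adjusted p = 0.00939) with a Th1 change of 0.13 (adjusted p = 0.464). The other names caught were Rab5if, which encodes a membrane protein and is no RAB, and the antisense genes Rab10os and Rab11fip4os1. Of these 3 genes 0 rose and 1 fell in Th1, and 1 rose and 1 fell in Th17 against naive cells. Rab5if had levels of 4.91, 5.25 and 5.16 in naive cells, 4.02, 4.05 and 3.94 in Th1 cells and 4.15, 4.01 and 4.21 in Th17 cells. Every naive array was above the others, and the gene fell, with changes of -1.10 (SE 0.11, adjusted p = 9.79e-05) and -0.98 (SE 0.11, adjusted p = 1.70e-04). Rab10os had levels of -1.33, -1.65 and -1.65 in naive cells, -1.58, -1.67 and -1.53 in Th1 cells and -0.86, -1.13 and -1.23 in Th17 cells. Its Th17 arrays were above all others. It rose in Th17 cells by 0.47 (SE 0.13, adjusted p = 0.0177), where it was not called without naive replicates 2 or 3 or Th17 replicate 1, with changes of 0.36 to 0.41, and Rab11fip4os1, above background on 3 of 9 arrays, was not called, with changes of 0.42 and 0.61.

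Of the 6 syntaxins of the plasma membrane, 1 rose and 2 fell in Th1 and likewise in Th17 against naive cells (median changes -0.32 and -0.39). The called genes were Stx11, Stx1a and Stx3. Stx11 encodes syntaxin-11, the SNARE for lytic granule release whose loss causes familial hemophagocytic lymphohistiocytosis. Its levels were 0.16, 0.76 and 0.49 in naive cells, 2.75, 2.46 and 2.77 in Th1 cells and 4.29, 3.97 and 4.82 in Th17 cells. The groups lay in the order naive, Th1, Th17 from low to high without overlap. Stx11 rose 4.57-fold in Th1 cells, by 2.19 (SE 0.23, adjusted p = 1.20e-04) on the log2 scale, and 14.9-fold in Th17 cells, by 3.89 (SE 0.23, adjusted p = 5.6e-06). Th17 cells were 3.25-fold above Th1 cells, and within slide 2 the change was 1.52 (adjusted p = 0.022).

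Stx1a and Stx3, the syntaxins of synaptic and of apical or granule exocytosis, fell. Stx1a had levels of -1.08, -1.16 and -0.92 in naive cells, -3.25, -3.49 and -2.98 in Th1 cells and -2.86, -2.58 and -3.97 in Th17 cells, and the lowest naive array was above every other array. It fell, with changes of -2.19 (SE 0.33, adjusted p = 7.16e-04) in Th1 and -2.08 (SE 0.33, adjusted p = 8.95e-04) in Th17 cells. Stx3 had levels of -1.54, -0.87 and -1.01 in naive cells, -3.99, -3.75 and -3.87 in Th1 cells and -4.93, -4.02 and -3.89 in Th17 cells. Naive and effector arrays did not overlap, and it fell, with changes of -2.73 (SE 0.28, adjusted p = 1.02e-04) and -3.14 (SE 0.28, adjusted p = 4.36e-05). Its other probe was above background on 3 of 9 arrays. Stx4a, the broadly expressed plasma membrane syntaxin, had levels of 3.55, 3.48 and 3.71 in naive cells, 3.63, 3.61 and 3.71 in Th1 cells and 3.32, 3.41 and 3.50 in Th17 cells. Naive arrays overlapped those of both subsets, and the Th17 arrays were all below the Th1 arrays. It was not called in any of the 3 comparisons, and the 95% confidence interval of its change was -0.16 to 0.30 in Th1 and -0.39 to 0.059 in Th17 cells. Stx2 was not called, with changes of -0.72 (adjusted p = 0.0587) in Th1 and -0.62 (adjusted p = 0.094) in Th17 cells. Its lowest Th1 array was the one on slide 1.

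Of the 5 syntaxins of endosomes and the trans-Golgi network, 4 rose and 1 fell in Th1 against naive cells (median change 1.09), and 3 rose and 1 fell in Th17 against naive cells (median 1.05). Of all genes 23.5% and 24.4% rose in these comparisons, and 5 genes are few. Stx8 and Stx7 sit in one SNARE complex that fuses late endosomes, and they moved in opposite directions. Stx8 had levels of -3.07, -3.15 and -3.15 in naive cells, -1.91, -1.69 and -1.45 in Th1 cells and -1.08, -1.19 and -0.72 in Th17 cells. The groups ran naive, Th1, Th17 from low to high without overlap. It rose by 1.44 (SE 0.16, adjusted p = 1.32e-04) in Th1 and 2.13 (SE 0.16, adjusted p = 1.54e-05) in Th17 cells. Stx7 had levels of -0.73, -0.45 and -0.52 in naive cells, -1.15, -1.40 and -1.47 in Th1 cells and -1.21, -1.46 and -1.30 in Th17 cells. The naive arrays were above all others, and it fell, with changes of -0.77 (SE 0.13, adjusted p = 0.00122) and -0.76 (SE 0.13, adjusted p = 0.00129).

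Stx16 and Stx6, partners in fusion of endosome vesicles with the trans-Golgi network, both rose. Stx16 had levels of -0.68, -0.95 and -0.93 in naive cells, 0.28, 0.53 and 0.35 in Th1 cells and 0.23, 0.35 and 0.012 in Th17 cells. It rose by 1.24 (SE 0.13, adjusted p = 1.09e-04) in Th1 and 1.05 (SE 0.13, adjusted p = 2.51e-04) in Th17 cells. Stx6 had levels of 2.87, 2.91 and 2.88 in naive cells, 3.64, 3.64 and 3.55 in Th1 cells and 4.10, 3.96 and 3.85 in Th17 cells. It rose by 0.72 (SE 0.094, adjusted p = 3.58e-04) and 1.08 (SE 0.094, adjusted p = 3.64e-05). For both genes the naive arrays were below all the others. Stx12, a syntaxin of recycling endosomes, rose in Th1 cells by 1.09 (SE 0.27, adjusted p = 0.00915) and changed by 0.24 (adjusted p = 0.468) in Th17 cells. Its levels were 0.74, 1.44 and 1.18 in naive cells, 2.74, 1.93 and 1.93 in Th1 cells and 1.65, 1.14 and 1.29 in Th17 cells, with the Th1 array of slide 1 above the other Th1 arrays.

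Of 3 syntaxins of the endoplasmic reticulum, Golgi and autophagosome, 1 rose and 1 fell in each subset against naive cells (median changes 0.29 and 0.36). Stx18, which receives vesicles returning to the endoplasmic reticulum, had levels of -0.19, -0.37 and -0.18 in naive cells, 0.24, 0.29 and 0.26 in Th1 cells and 0.84, 0.82 and 0.81 in Th17 cells. The groups ran naive, Th1, Th17 from low to high without overlap. It rose by 0.51 (SE 0.089, adjusted p = 0.00167) and 1.07 (SE 0.089, adjusted p = 3.04e-05). Stx5a, the main syntaxin of the ER to Golgi step, fell, with changes of -0.52 (SE 0.089, adjusted p = 0.00142) in Th1 and -0.31 (SE 0.089, adjusted p = 0.0165) in Th17 cells, and the Th17 value was not called without naive replicate 1, with a change of -0.26. Stx17, the syntaxin of autophagosomes, was not called, with changes of 0.29 (adjusted p = 0.159) and 0.36 (adjusted p = 0.0853). One of its dimmer probes gave 0.91 (adjusted p = 0.0187) and 1.0004 (adjusted p = 0.0119) and the other 0.42 and 0.65.

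**Figure D3:**
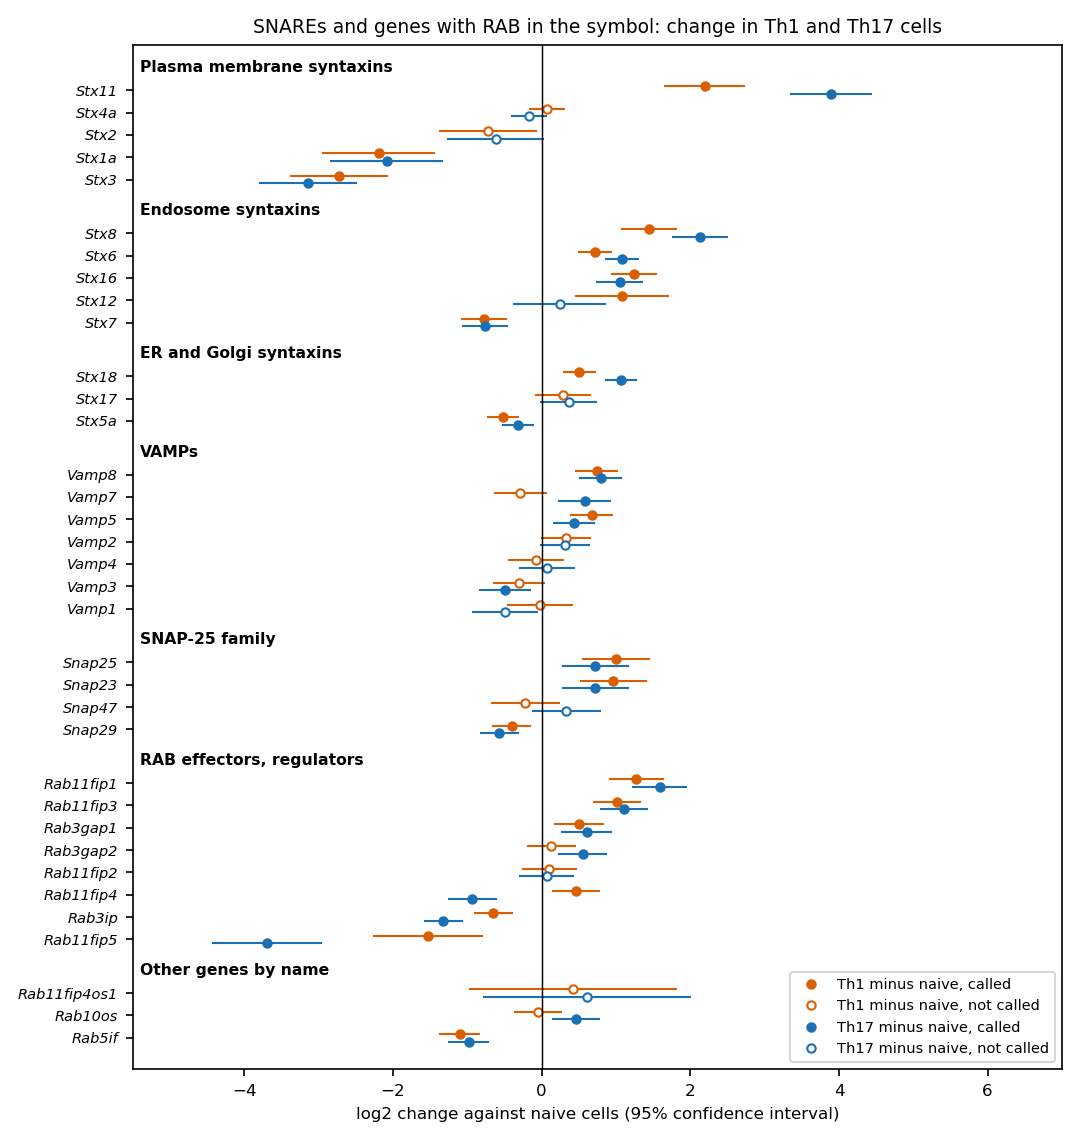
Log2 change against naive cells for SNAREs and for genes that carry RAB in the symbol but encode other proteins, in Th1 and in Th17 cells, with 95% confidence intervals. Stx11 lies furthest right at 2.19 and 3.89, and Rab11fip5 and Stx3 lie to the left in Th17 cells at -3.70 and -3.14; only 1 of 3 Th17 arrays was above background for Rab11fip5.

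Of the 7 VAMPs, the SNAREs of the vesicle side, 2 rose and 0 fell in Th1 against naive cells (median change -0.016), and 3 rose and 1 fell in Th17 against naive cells (median 0.31). Vamp8, which serves granule exocytosis and endosome fusion, had levels of -0.30, -0.49 and -0.28 in naive cells, 0.50, 0.24 and 0.42 in Th1 cells and 0.58, 0.27 and 0.47 in Th17 cells. The naive arrays were below all the others. It rose by 0.74 (SE 0.12, adjusted p = 0.00113) in Th1 and 0.80 (SE 0.12, adjusted p = 7.48e-04) in Th17 cells. Vamp5, a VAMP best known from muscle, rose by 0.68 (SE 0.12, adjusted p = 0.00173) and 0.44 (SE 0.12, adjusted p = 0.0145), and the Th17 value was not called without naive replicate 2, with a change of 0.40. Vamp7, the lysosomal VAMP, had levels of -2.37, -2.70 and -2.23 in naive cells, -2.73, -2.50 and -2.92 in Th1 cells and -1.80, -1.85 and -1.90 in Th17 cells. The Th17 arrays were above all others, and naive and Th1 arrays overlapped, so that Vamp7 rose in Th17 cells by 0.58 (SE 0.15, adjusted p = 0.0108) and had a change of -0.29 (adjusted p = 0.141) in Th1 cells.

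Vamp3, the VAMP of recycling endosomes that returns T cell receptors to the synapse, had levels of -1.28, -0.94 and -0.80 in naive cells, -1.25, -1.46 and -1.21 in Th1 cells and -1.36, -1.66 and -1.48 in Th17 cells. Its Th17 arrays were below every naive array, and its Th1 and naive arrays overlapped. It fell in Th17 cells, with a change of -0.49 (SE 0.15, adjusted p = 0.0212), where it was not called without naive replicates 2 or 3 or Th17 replicate 2, with changes of -0.46 to -0.39, and its Th1 change was -0.30 (adjusted p = 0.118). Vamp2, a VAMP of synaptic vesicles, had levels of 0.56, 0.18 and 0.21 in naive cells, 0.69, 0.53 and 0.72 in Th1 cells and 0.81, 0.63 and 0.45 in Th17 cells, which overlapped between groups. Vamp2 and its close relative Vamp1 were not called in either comparison with naive cells, with Th1 changes of 0.33 and -0.016 and Th17 changes of 0.31 and -0.50. Vamp4, of the trans-Golgi network, had levels of -0.022, -0.30 and 0.034 in naive cells, -0.043, -0.21 and -0.27 in Th1 cells and 0.29, -0.16 and -0.20 in Th17 cells, and its result depended on the probe. The brighter probe gave -0.079 (adjusted p = 0.702) and 0.072 (adjusted p = 0.724), and the dimmer one, above background on all 9 arrays, gave -0.71 (adjusted p = 0.0301) and -1.05 (adjusted p = 0.00496).

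Of 4 genes of the SNAP-25 family, 2 rose and 1 fell in each subset against naive cells (median changes 0.37 and 0.53). Snap23 is the broadly expressed member that pairs with syntaxins at the plasma membrane, and Snap25 is its neuronal counterpart. Snap23 had levels of 2.70, 2.66 and 2.64 in naive cells, 3.71, 3.73 and 3.46 in Th1 cells and 3.47, 3.76 and 2.95 in Th17 cells. Snap25 had levels of 3.31, 3.23 and 3.20 in naive cells, 4.35, 4.30 and 4.10 in Th1 cells and 4.11, 4.30 and 3.50 in Th17 cells. For both probes the naive arrays were below all the others. Snap23 rose by 0.97 (SE 0.19, adjusted p = 0.00301) in Th1 and 0.72 (SE 0.19, adjusted p = 0.012) in Th17 cells, and Snap25 by 1.004 (SE 0.19, adjusted p = 0.0026) and 0.72 (SE 0.19, adjusted p = 0.0125). These values are uncertain. The dimmer probe of Snap23 fell in Th1 cells, with a change of -0.58 (adjusted p = 0.00211) and changed by 0.72 (adjusted p = 0.00305) in Th17 against Th1 cells, where the brighter one gave -0.24. With the mean of its probes Snap23 changed by 0.19 (adjusted p = 0.214) in Th1 cells. The level of the Snap25 probe, set against its own mean over the 9 arrays, followed that of the brighter Snap23 probe on every array. Snap29, which takes part in autophagosome fusion, fell, with a change of -0.40 (SE 0.11, adjusted p = 0.0134) in Th1 cells (not called without naive replicate 3, with a change of -0.32) and, with a change of -0.57 (SE 0.11, adjusted p = 0.0025), in Th17 cells. Snap47 was not called, with changes of -0.22 (adjusted p = 0.377) and 0.33 (adjusted p = 0.183).

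**Figure D4:**
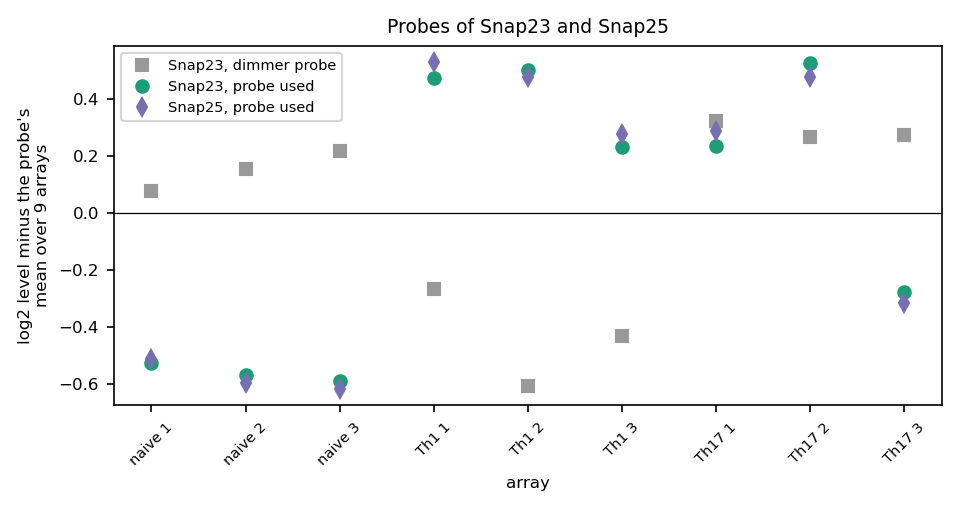
Level of each probe of Snap23 and Snap25 on every array, as the log2 level minus the mean of that probe over the 9 arrays. The Snap25 probe and the brighter Snap23 probe lie together, and the dimmer Snap23 probe is lowest in Th1 cells, at -0.27, -0.61 and -0.43.

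The direct comparison of Th17 with Th1 cells called 14 of the 84 genes, 9 higher and 5 lower in Th17 cells. Of the 59 Rab symbols 4 were higher and 5 lower, and of the 25 Stx, Vamp and Snap symbols 5 were higher and 0 lower. Of all genes tested 15.8% were called, 8.26% higher and 7.5% lower. Beside that, 16.7% of the 84 genes, 15.3% of the Rab symbols and 20% of the others were called, about as often as other genes. The split of the SNARE symbols rests on 5 genes, and the calls of Stx8 and Stx6 among them were lost without certain single arrays. The 9 higher genes were Rab4a, Stx11, Vamp7, Stx8, Stx18, Rab10os, Rab2a, Rab5b and Stx6. Without Th1 replicate 1, Th1 replicate 2, Th17 replicate 1 or Th17 replicate 2 this count was 4 or 5, and the count of lower genes was 5 or 6 without any one array. Rab4a had the largest rise, 2.45 (SE 0.13, adjusted p = 1.44e-05), followed by Stx11 at 1.70 (SE 0.23, adjusted p = 0.00204). Vamp7 was higher in Th17 cells by 0.87 (SE 0.15, adjusted p = 0.00626) and Stx18 by 0.56 (SE 0.089, adjusted p = 0.00447), and within slide 2 their changes were 0.89 (adjusted p = 0.0671) and 0.55 (adjusted p = 0.0655).

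The remaining higher calls were small, with adjusted p from 0.0206 to 0.0488 by limma, and each was lost when certain single arrays were left out. In each of these genes every Th17 array was above every Th1 array. Stx8 was higher by 0.69 (SE 0.16, adjusted p = 0.0206) and not called without Th1 replicates 1 or 2, with changes of 0.57 to 0.68. Rab10os was higher by 0.52 (SE 0.13, adjusted p = 0.0339) and not called without naive replicate 3, Th1 replicates 1, 2 or 3 or Th17 replicates 1 or 2, with changes of 0.41 to 0.55. Rab2a, whose levels were 0.38, 0.37 and 0.42 in naive cells, 0.22, 0.05 and 0.003 in Th1 cells and 0.61, 0.48 and 0.44 in Th17 cells, was higher by 0.42 (SE 0.10, adjusted p = 0.0214) and not called without Th1 replicates 2 or 3 or Th17 replicates 1 or 2, with changes of 0.37 to 0.44. Rab5b and Stx6 were higher by 0.37 (adjusted p = 0.0488) and 0.36 (adjusted p = 0.0346). Rab5b was not called without any 1 of the 9 arrays, with changes of 0.29 to 0.41. Those include the naive arrays, which do not enter the change itself. Stx6 was not called without naive replicates 1, 2 or 3, Th1 replicates 1, 2 or 3 or Th17 replicates 1 or 2, with changes of 0.30 to 0.38.

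The 5 genes lower in Th17 than in Th1 cells were Rab11fip5, Rab25, Rab11fip4, Rab37 and Rab3ip, of which 3 encode RAB effectors or regulators. Rab11fip5, with 1 of 3 Th17 arrays above background, was lower, with a change of -2.17 (SE 0.32, adjusted p = 0.00283), Rab11fip4 with one of -1.40 (SE 0.14, adjusted p = 3.43e-04) and Rab3ip with one of -0.67 (SE 0.11, adjusted p = 0.00477). Within slide 2 the changes were -1.88 (adjusted p = 0.0545), -1.38 (adjusted p = 0.0102) and -0.57 (adjusted p = 0.111), so that Rab11fip4, with Rab4a and Stx11 among the higher genes, stayed called on that slide alone. Rab25 was below background on every Th17 array, as given above, and Rab37 was given with the secretory RABs.

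**Figure D5:**
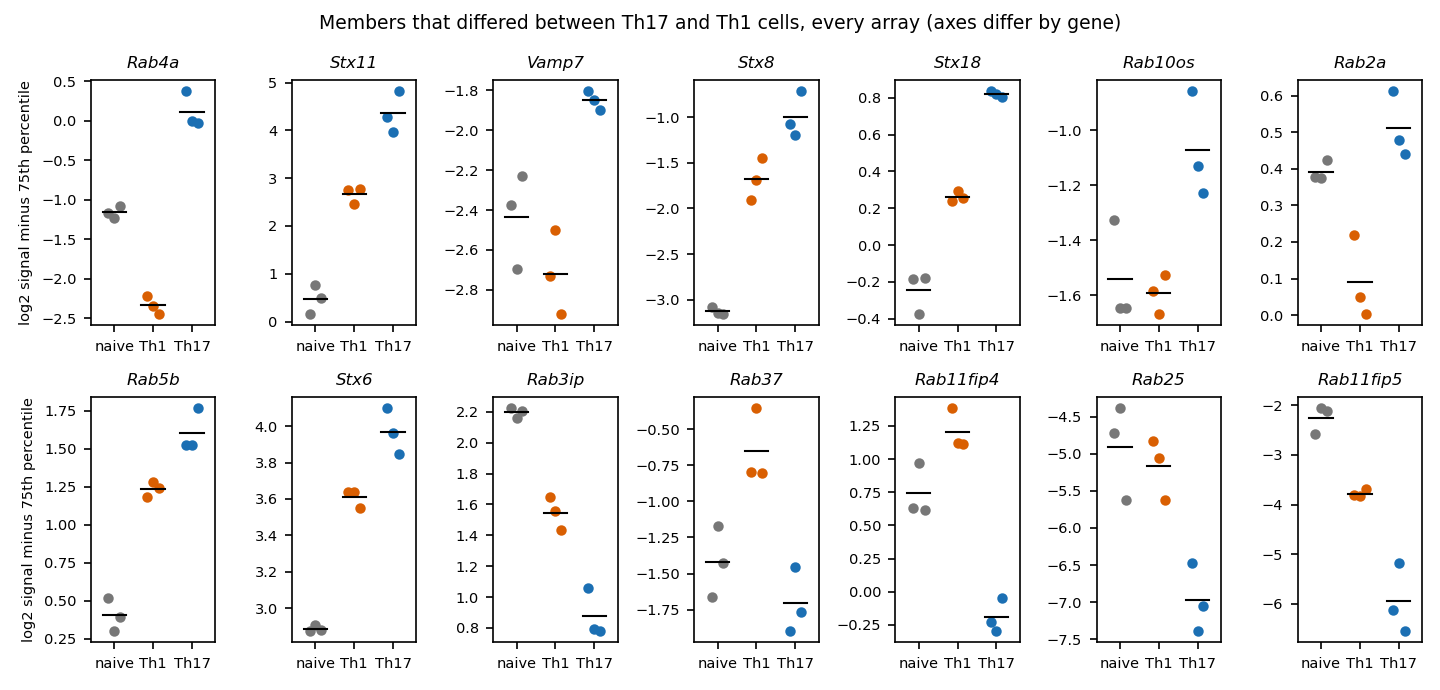
Level on every array (log2 signal minus the 75th percentile of the array) of genes called between Th17 and Th1 cells, with bars at the group means. The axes differ by gene; Rab4a lies lowest in Th1 cells and highest in Th17 cells, and Rab11fip4 the other way round.

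Of the genes chosen by name, 12 were not tested. Rab15 was above background on 2 naive arrays and no other, and Rab38, a RAB of lysosome-related organelles, on 1 Th17 array. The other 10 were above background on no array: Rab13, Rab30, Rab39, Rab3il1, Rab40b, Rab42, Rab6b, Rab9b, Snap91 and Stx19. Snap91 encodes a clathrin adaptor and is no SNARE. Of the 84 tested genes 70 were above background on all 9 arrays. The median spread between arrays of a group was 0.18 on the log2 scale for the RAB and SNARE genes and 0.20 for all genes, and 20 tested genes had several usable probes, which all had one sign in 17, 16 and 15 of them in the 3 comparisons.

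Other genes of vesicle traffic were listed by function. The shares of all genes to set beside their counts are 23.5% higher and 30.4% lower in Th1, and 24.4% and 29.7% in Th17 against naive cells. Among 14 genes of SNARE disassembly and of the Sec1/Munc18 family, 7 rose and 2 fell in Th1 against naive cells (median change 0.35), and 7 rose and 3 fell in Th17 cells (median 0.45). Stxbp5, tomosyn, which holds syntaxins in an inactive complex, was below background on all naive arrays. It was at least 5.75-fold higher in Th1 and at least 2.73-fold higher in Th17 cells, through which alone it passed the filter. Vps45, the Sec1/Munc18 protein of endosomes and partner of syntaxin-16, rose by 1.59 in Th1 cells (adjusted p = 0.00127), and Scfd2 and Scfd1, of the same family, rose by 3.02 and 1.08 in Th17 cells. All were highest in Th17 cells by mean level. In naive, Th1 and Th17 cells the means were -3.69, -2.10 and -1.57 for Vps45. They were -3.71, -2.47 and -0.69 for Scfd2 and 0.12, 0.65 and 1.20 for Scfd1. Stxbp2, the partner of syntaxin-11, was named after its values were seen: it changed by -0.20 (adjusted p = 0.161) in Th1 cells and fell, with a change of -0.42 (adjusted p = 0.0112) in Th17 cells.

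Of 10 SNAREs outside the name rule, 3 rose and 3 fell in Th1 against naive cells (median change -0.19), and 3 rose and 1 fell in Th17 cells (median -0.096). Bet1, of the ER to Golgi step, had levels of -3.66, -4.20 and -3.74 in naive cells, -3.22, -2.91 and -2.75 in Th1 cells and -1.55, -1.42 and -1.10 in Th17 cells. The groups ran naive, Th1, Th17 from low to high without overlap. It rose by 0.91 (SE 0.19, adjusted p = 0.0043) in Th1 and 2.51 (SE 0.19, adjusted p = 1.92e-05) in Th17 cells, and the Th17 against Th1 change was 1.60 (adjusted p = 0.00103). Gosr2, a Golgi SNARE, was highest in Th1 cells: it rose by 1.90 (SE 0.14, adjusted p = 1.66e-05) in Th1 and 0.73 (SE 0.14, adjusted p = 0.00249) in Th17 cells, with Th17 against Th1 cells at a change of -1.17 (adjusted p = 9.96e-04). Vti1a, a partner of syntaxin-16 and syntaxin-6, rose by 2.23 (SE 0.35, adjusted p = 9.67e-04) in Th17 cells, and Vti1b, of the complex of syntaxin-7 and syntaxin-8, fell, with a change of -0.58 (SE 0.12, adjusted p = 0.00417) in Th1 cells. Use1, of the complex of syntaxin-18, fell, with changes of -0.58 and -0.71.

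Of 8 effectors of RAB27 and factors that prime granules, 4 rose and 1 fell in Th1 against naive cells (median change 0.48), and 5 rose and 0 fell in Th17 cells (median 0.64). Unc13b, Munc13-2, which readies vesicles for fusion, had levels of -5.02, -4.85 and -4.72 in naive cells, -0.24, -0.37 and -0.012 in Th1 cells and -3.29, -2.55 and -3.41 in Th17 cells, with 1 of 3 naive arrays above background. Th1 cells were the highest group by far, with no overlap among the groups: the change was 4.66 (SE 0.22, adjusted p = 1.8e-06) in Th1 and 1.78 (SE 0.22, adjusted p = 2.66e-04) in Th17 cells, and -2.88 (SE 0.22, adjusted p = 1.04e-04) between Th17 and Th1 cells. Lyst, the gene of the giant granules of Chediak-Higashi syndrome, rose in Th1 cells by 2.13 (SE 0.33, adjusted p = 8.23e-04), and was lower in Th17 than in Th1 cells, with a change of -2.68 (SE 0.33, adjusted p = 0.00111). Sytl3, a RAB27 effector of the synaptotagmin-like family, rose in Th17 cells by 2.34 (SE 0.17, adjusted p = 1.49e-05), above Th1 cells by 1.96 (SE 0.17, adjusted p = 1.90e-04). Unc13d, Munc13-4, the RAB27 partner in lytic granule release, was named after its values were seen and rose by 0.58 (adjusted p = 0.0434) and 0.66 (adjusted p = 0.0272).

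Of 9 exocyst genes, whose complex tethers vesicles at the plasma membrane for RAB11 and RAB8 carriers, 6 rose and 0 fell in Th1 and likewise in Th17 against naive cells (median changes 0.47 and 0.59). Of all genes 23.5% and 24.4% rose in these comparisons. Exoc3 rose by 1.23 (SE 0.17, adjusted p = 5.04e-04) in Th1 and 1.09 (SE 0.17, adjusted p = 9.26e-04) in Th17 cells, and Exoc2 by 0.45 and 1.33, with Th17 above Th1 cells by 0.89 (adjusted p = 0.00329). Of 14 genes of the RAB cycle, 3 rose and 5 fell in Th1 and 4 rose and 6 fell in Th17 against naive cells (median changes -0.13 and -0.098). Rabggtb, a subunit of the transferase that lipidates RABs, fell, with changes of -1.05 (SE 0.12, adjusted p = 2.10e-04) and -0.81 (SE 0.12, adjusted p = 7.88e-04), and Rabgap1l, which has a GTPase-activating domain, rose by 1.56 (SE 0.13, adjusted p = 2.89e-05) and 1.17 (SE 0.13, adjusted p = 1.22e-04). Rabep2, an effector of RAB5, fell, with changes of -0.79 and -0.85, and Rabgef1, the exchange factor of RAB5, was higher in Th17 than in Th1 cells by 1.04 (adjusted p = 0.0154). Between Th17 and Th1 cells 1 exocyst gene was higher and 0 were lower, and 1 gene of the RAB cycle was higher and 1 lower. Of all genes 8.26% were higher and 7.5% lower in that comparison. Of 9 synaptotagmins and complexins, 2 rose and 0 fell in Th1 and 2 rose and 2 fell in Th17 cells (median changes 0.15 and 0.41). Cplx1, which clamps assembled SNARE complexes, rose by 2.85 (SE 0.20, adjusted p = 1.26e-05) and 1.84 (SE 0.20, adjusted p = 1.17e-04), and Syt11 rose in Th1 cells by 0.81 (adjusted p = 0.00142) and fell in Th17 cells, with a change of -0.45 (adjusted p = 0.0238). Between Th17 and Th1 cells 0 synaptotagmins and complexins were higher and 2 were lower. The counts were 2 and 1 for SNARE disassembly and Sec1/Munc18 genes, 1 and 1 for other SNAREs, and 1 and 2 for RAB27 effectors and priming factors. With 8.26% of all genes higher and 7.5% lower, such counts in short lists say little about a list.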

How the data were processed

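Agilent 1-colour arrays of 9 sorted T cell samples (3 naive, 3 Th1, 3 Th17) were used. The deposited scanner files give a processed signal per spot, an intensity after background subtraction, from Agilent Feature Extraction 10.7.3.1 per the file headers (10.5 per the submitters' processing notes) on array design 026655. The deposited value table is on a log2 scale, with a baseline per probe that is not given in the sources used here. Differences between its arrays matched those of the scanner files (r = 1 and slope 1 over 23216 probes), its column medians ran from -0.10 to 0.28, and it served as an alternative.

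From each array the log2 of the processed signal minus that of the array's 75th percentile was taken, without 1377 control spots and 183 to 221 outlier spots, over 39429 probes. Symbols came through RefSeq accessions for 27234 probes. The build of the file headers differs from GRCm38.p6, so the annotation served for names and for promoter sequences only. Probes were kept when above background on 3 of 9 arrays (23307 probes), and the brightest kept probe stood for a gene. All 3 groups entered 1 fit without covariates in limma 3.58.1 (R 4.3.3; lmFit, eBayes), with Benjamini-Hochberg adjustment over 19134 genes. The script was tested on simulated data. The genes and lists were chosen with earlier results of these data known, and any gene of the family could be named. Values of every array are given for the 10 largest rises and falls called in each comparison and for a set tied to T cell secretion; of the other lists, the called genes with the smallest p are named. Single values of a few genes that these rules take in are not reported here. Alternatives were normexp background correction on the median signal (the files have no mean signal column), quantile normalization, the probes that set the percentile, the dim-probe filter, the choice of probe, slide and replicate blocks, and each array left out.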

Additional observations from a re-analysis of the deposited data

Results flagged for a closer look

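The change against naive cells differed between Th17 and Th1 cells for 14 RAB and SNARE genes at an adjusted p under 0.05 in limma. Since both changes share the naive arrays, their difference is the Th17 against Th1 comparison. The difference was positive for Rab4a at 2.45, Stx11 at 1.70, Vamp7 at 0.87, Stx8 at 0.69, Stx18 at 0.56, Rab10os at 0.52, Rab2a at 0.42, Rab5b at 0.37 and Stx6 at 0.36 on the log2 scale. It was negative for Rab11fip4 at -1.40, Rab37 at -1.05 and Rab3ip at -0.67. It was also negative for Rab11fip5, fitted at -2.17 with 1 of 3 Th17 arrays above background, and for Rab25, fitted at -1.80 with no Th17 array above background, so that only a bound of at least 1.21-fold lower holds. For Rab4a and Rab11fip4 the changes against naive cells were called in opposite directions in the 2 subsets. Among all genes tested 15.8% were called in this comparison.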

How the results depend on the processing

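For 46 genes with values of every array, 138 changes were recomputed under each alternative, and 132 kept their sign and side of the threshold with quantile normalization, 128 with the percentile over probes detected on all arrays, 67 with the planned normexp correction (2 turned), 137 with the deposited value table, 118 with slide as a fixed block and 133 with slide as a random block. That correction called 2 genes higher and 3 lower in Th1 against naive, 3 and 1 in Th17 against naive, and 0 and 0 in Th17 against Th1 cells (6.54%, 6.43% and 0.92% of all genes), and turned Rab7b in Th1 against naive to 0.34 (adjusted p = 0.741) and Vamp7 in Th17 against Th1 to -0.019 (adjusted p = 0.981); Rab3a and Rab43 in Th1 against naive also turned, to 0.70 and -0.077. Th1 replicate 2 has a spot with a local background of 168530, where most arrays stay under 70, and with local backgrounds above 200 replaced, an alternative chosen after seeing the data, 127 of the 138 kept sign and side. The mean of all probes turned Vamp4 in Th17 against naive to -0.49 (adjusted p = 0.0453). Genes lower in Th17 against naive numbered 10 with slide as a fixed block (22 in the main result). Genes higher in Th17 against Th1 (9) numbered 4 with no filter on dim probes, 2 within slide 2, 5 with only the arrays of both groups and 4 to 8 with 1 array left out, and genes lower (5) numbered 8 with the percentile over probes detected on all arrays, 1 within slide 2 and 5 to 6 with 1 array left out. The cause of these differences was not tested.

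Residuals of same-numbered replicates correlated at -0.0068 to 0.18 over 9 pairs, against -0.20 to 0.065 over 18 pairs of different number. The same-numbered range lies somewhat higher but overlaps the other. The labels do not say whether the numbers pair the samples, and these ranges cannot decide it. With the replicate block the counts were 23 and 23, 27 and 24, and 9 and 6. The number of arrays limits the precision, and genes near background have only bounds.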
